A study of Gallus gallus with 6 samples.

Results

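The proximal part of the chick ductus arteriosus (DA) was compared with its distal part at the internal pipping (IP) stage, when the embryo has broken into the air cell of the egg. The comparison used 4 of the 6 arrays of the series, 2 of the proximal DA, which leaves the pulmonary artery, and 2 of the distal DA, which joins the aorta. It covered all 20804 probe sets, and the 2 aorta arrays served only to estimate the spread between replicates and to set the aortic level beside the others. All embryos were Hypeco Nera chickens of the same stage with no treatment named, the right-sided DA was taken, and every array received 100 ng of RNA from a pool of 10 embryos. Neither the labels nor the methods state that the duplicate arrays had pools of their own. The p-values therefore rest on the spread of duplicates that may be technical.

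The DA carries blood past the lungs before hatching and closes afterwards. In the chick its proximal part is a muscular artery that contracts when oxygen rises, whereas its distal part is an elastic artery that resembles the aorta and is still open after hatching. Muscular arteries are rich in smooth muscle with a thin elastic net. Elastic arteries stack sheets of elastin between their muscle layers. Nitric oxide relaxes arterial muscle through soluble guanylate cyclase and cGMP, prostaglandins keep the mammalian DA open, and calcium entry contracts it. In mammals much of the smooth muscle of the DA comes from the neural crest.

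The values are log2 intensities after RMA, so that 1 unit stands for a 2-fold change of intensity. Differences are the proximal mean minus the distal mean, each with a standard error (SE) from 1 limma fit over all arrays, and a probe set was called at an adjusted p under 0.05. The fit called 33 probe sets higher in the proximal DA, which was 0.159% of those tested, and 19 lower, which was 0.0913%. At an unadjusted p under 0.05 there were 822 higher (3.95%) and 699 lower (3.36%), and 111 (0.534%) and 61 (0.293%) differed by 1 or more in each direction. The differences of the higher probe sets ran from 1.08 to 2.82 and those of the lower ones from -1.02 to -2.17. A further 51 higher and 36 lower probe sets had an adjusted p between 0.05 and 0.1. Of the 33, 27 were named by the array annotation, 2 by the study's tables (*des* and *upk1b*), and 4 had no name. The 19 held 17 named probe sets of 16 genes.

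The calls depended on single arrays. Without proximal DA replicate 1, only *hpse2* and *tyr* among them still passed, and without proximal DA replicate 2, distal DA replicate 1 or distal DA replicate 2, 0 of the 52 passed. With the replicate number as a block, 0 of the 52 passed either (smallest adjusted p = 0.0618 by limma), although the labels do not say that a number pairs arrays. Every one of the 52 kept its direction when any 1 of the 6 arrays was left out, with differences of at least 0.96 in size. The 52 were chosen for their differences in these same arrays, so a kept direction was nearly fixed in advance. Without either aorta array, 47 passed, and *cytl1*, *phlda2*, *plce1*, *anxa8l1* and 1 unnamed probe set did not. The 2 proximal arrays differed by a median of 0.21 over all probe sets and by 1 or more at 221 of them, against a median of 0.15 and 137 probe sets for the 2 distal arrays. Proximal and distal arrays of the same number differed by a median of 0.16 in both cases, which was less than between the proximal arrays. Detection calls were not used here, so values under the lower quartiles of the arrays (5.25 to 5.41) cannot be told from background and the size of such a difference is not exact.

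**Figure D1:**
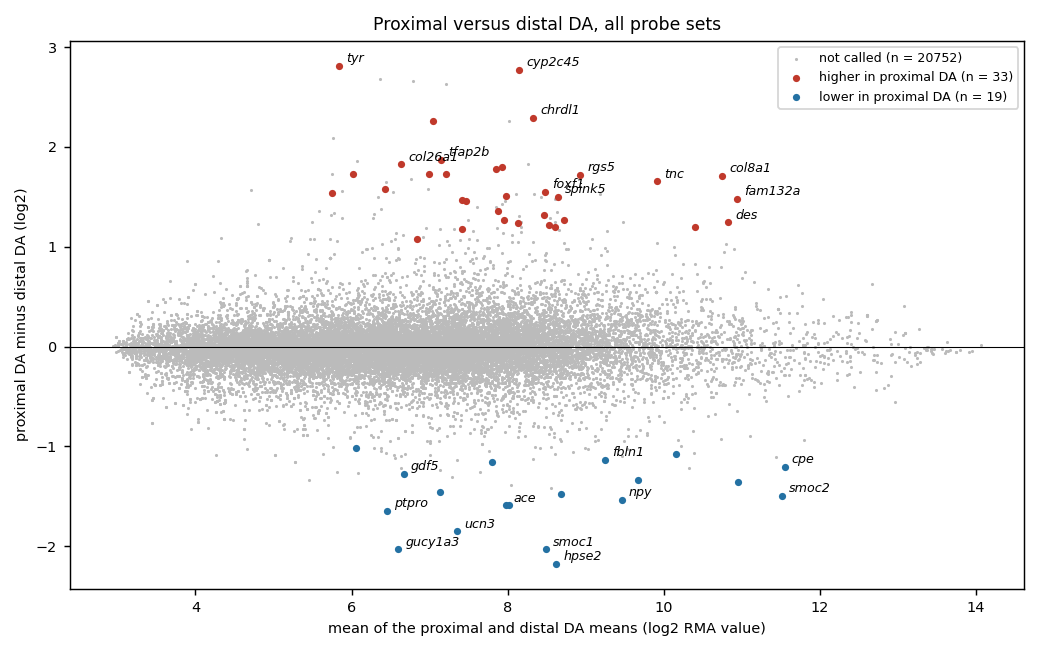
Proximal minus distal difference (log2) of all 20804 probe sets against the mean of the 2 tissue means (log2 RMA value); red points are the 33 probe sets called higher and blue points the 19 called lower in the proximal DA. The called probe sets lie at 1.02 or more from 0, and they are spread over low and high levels.

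The order of the tissues gives the calls a second description. The distal mean lay between the proximal and the aortic mean for 25 of the 33 higher and 16 of the 19 lower probe sets. It was the lowest of the 3 for 8 of the higher ones, among them *capn6*, *comp* and *tyr*. For *capn6* the distal mean was 7.025 and the aortic mean 8.44. For *comp* the 2 means were nearly equal (6.685 and 6.71), and for *tyr* both were at background (4.43 and 4.715). The distal mean was the highest of the 3 for *ucn3*, *grin3a* and *plce1*. The distal values entered both steps of this order, so it is given without a test. How often the distal mean lay between the others over all probe sets was not counted. These counts therefore show no trait particular to the calls.

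**Figure D2:**
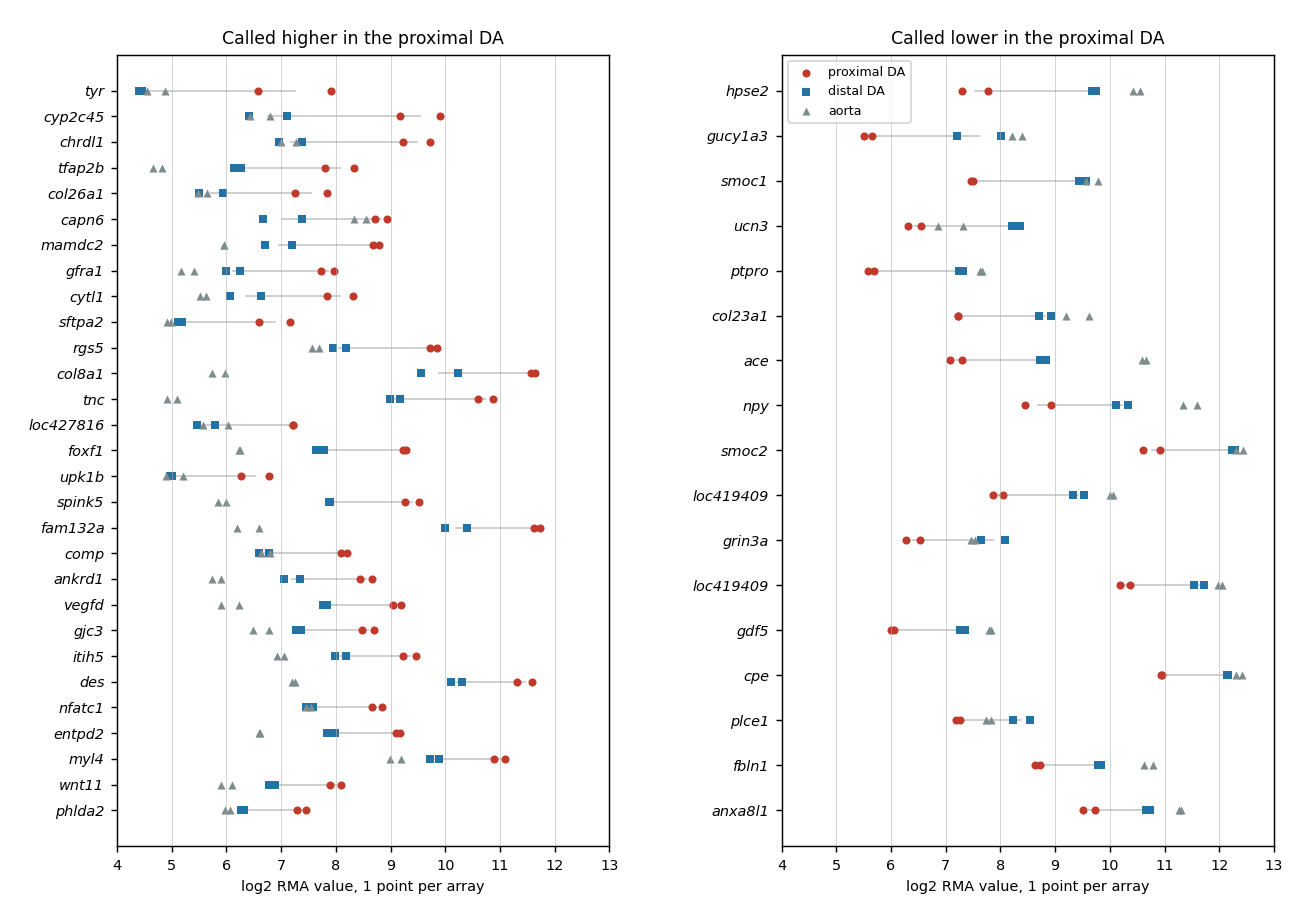
Log2 RMA value of each array for the named probe sets called higher (left) and lower (right) in the proximal DA, with 1 red circle per proximal array, 1 blue square per distal array and 1 grey triangle per aorta array; grey lines join the proximal and distal means. In every row the 2 proximal arrays lie on the same side of the 2 distal arrays. The rows were chosen for their differences in these same arrays, so this was nearly fixed in advance. For *hpse2* the aorta arrays lie beyond the distal ones.

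Of the functions listed, the extracellular matrix held the most called genes. The lists differ in size and were drawn up with earlier results of these data known. Their shares beside those of all genes, here and in what follows, are therefore descriptions and no test of a function. Among 67 measured matricellular, proteoglycan and heparan sulfate genes, 2 were higher and 3 lower, against 0.234% higher and 0.139% lower over the 11528 genes with a name. Among 32 collagens, 2 were higher and 1 lower, and among 19 elastic fibre genes, 1 was lower and 0 were higher (1 higher at an unadjusted p under 0.05 by limma). The medians of the 3 lists, 0.01, -0.04 and -0.07, lay near that of all genes, -0.005.

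Heparanase 2, *hpse2*, is a heparan sulfate-binding protein that lacks enzyme activity and blocks heparanase. Its value was 7.77 and 7.29 in the proximal DA, against 9.74 and 9.67 in the distal DA, and 10.43 and 10.55 in the aorta. Both proximal arrays thus lay far below all others, and *hpse2* fell by 2.17 on the log2 scale, or 4.52-fold (SE 0.18, adjusted p = 0.0238 by limma). The SMOC proteins are secreted, calcium-binding relatives of SPARC, and SMOC1 is known to modulate BMP signalling in frog and mouse. *Smoc1* gave 7.46 and 7.49 in the proximal DA, against 9.44 and 9.57 in the distal DA, and 9.56 and 9.79 in the aorta. *Smoc2*, among the brightest called genes, gave 10.61 and 10.92 in the proximal DA, against 12.23 and 12.29 in the distal DA, and 12.31 and 12.44 in the aorta. Both genes fell in the proximal DA, by 2.03 and 1.49 (adjusted p = 0.0238 each by limma), and their distal values lay close to the aortic ones. The heparan sulfate sulfotransferase *hs3st1* was at 6.21 and 5.97 in the proximal DA, against 7.11 and 7.26 in the distal DA, and 5.92 and 6.20 in the aorta. Only the distal DA stood apart for it, and its difference of -1.09 did not pass (adjusted p = 0.0649 by limma).

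Other matrix genes were higher in the proximal DA. Tenascin C, *tnc*, a matrix protein of developing and injured vessels, had 10.60 and 10.87 in the proximal DA, against 8.99 and 9.17 in the distal DA, and 5.09 and 4.91 in the aorta. It was higher by 1.66 (SE 0.16, adjusted p = 0.0238 by limma), while its second probe set, at 9.07 and 9.41 in the proximal and 8.15 and 8.26 in the distal DA, differed by 1.03 without passing (adjusted p = 0.0886). A probe set that the annotation gives as *loc427816* and the study as tenascin-R-like had 7.21 and 7.21 in the proximal DA, against 5.80 and 5.47 in the distal DA, and 5.57 and 6.02 in the aorta, and was higher by 1.57. The secreted MAM domain protein gene *mamdc2* was at 8.79 and 8.68 in the proximal DA, against 7.20 and 6.71 in the distal DA, and 5.95 and 5.96 in the aorta. *Mamdc2* was higher by 1.78 (SE 0.18, adjusted p = 0.0238 by limma).

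Cartilage oligomeric matrix protein, *comp*, a pentameric protein that binds collagens, had 8.10 and 8.20 in the proximal DA, against 6.77 and 6.60 in the distal DA, and 6.63 and 6.79 in the aorta. Here the distal DA was level with the aorta and the proximal DA alone was higher, by 1.47 (SE 0.15, adjusted p = 0.0238 by limma). Of 13 measured cartilage genes, *comp* was the 1 called, and the mean level of the list was 7.40 and 7.04 in the proximal DA against 7.09 and 7.07 in the distal DA. The list had 1 positive (7.69%) and 1 negative (7.69%) at an unadjusted p under 0.05, against 5.22% and 3.32% of all genes. The hyaluronan link proteins had differences of opposite sign that did not pass. *Hapln1* gave 9.47 and 9.95 in the proximal and 10.86 and 10.99 in the distal DA (adjusted p = 0.0679 by limma). *Hapln3* gave 8.98 and 8.71 in the proximal and 7.73 and 7.87 in the distal DA (adjusted p = 0.0679). The heavy chain *itih5*, which links to hyaluronan, was at 9.47 and 9.23 in the proximal, 8.18 and 7.99 in the distal DA and 7.05 and 6.92 in the aorta, and was higher by 1.26 (adjusted p = 0.0395).

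Collagen VIII is a short-chain collagen laid down by vascular cells during remodelling. *Col8a1* had 11.56 and 11.65 in the proximal DA, against 10.24 and 9.55 in the distal DA, and 5.74 and 5.98 in the aorta. The gene was higher by 1.71 (SE 0.23, adjusted p = 0.048 by limma), and the 2 distal arrays differed by more than the 2 proximal ones. *Col26a1*, which the study lists under its older name *emid2*, was at 7.26 and 7.83 in the proximal DA, against 5.94 and 5.50 in the distal DA, and 5.64 and 5.48 in the aorta, and was higher by 1.82 (adjusted p = 0.0425). The transmembrane collagen *col23a1* ran the other way, with 7.22 and 7.23 in the proximal DA, against 8.70 and 8.93 in the distal DA, and 9.19 and 9.62 in the aorta. It fell by 1.59 (SE 0.18, adjusted p = 0.0287 by limma). The basement membrane collagen *col15a1* lay at 5.97 and 6.01 in the proximal and 6.89 and 7.33 in the distal DA, a difference of -1.12 that did not pass (adjusted p = 0.0886). The fibrillar *col1a1* was at 13.77 and 13.54 in the proximal and 13.62 and 13.60 in the distal DA, so that the 2 parts overlapped.

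Of the elastic fibre genes, fibulin 1, *fbln1*, was called. It had 8.73 and 8.63 in the proximal DA, against 9.84 and 9.79 in the distal DA, and 10.78 and 10.62 in the aorta, and fell by 1.13 (SE 0.14, adjusted p = 0.0395 by limma). Elastin itself, *eln*, was bright everywhere, with 12.68 and 12.55 in the proximal DA, against 13.07 and 12.99 in the distal DA, and 13.20 and 13.20 in the aorta. Its difference of -0.41 did not pass (adjusted p = 0.443), nor did that of *fbln5*, which helps assemble elastic fibres (-0.44, adjusted p = 0.418). In all, 5 of the 19 genes had a negative difference at an unadjusted p under 0.05, or 26.3%, against 3.32% of all genes. The elastin cross-linking enzyme *lox* was at 13.25 and 13.17 in the proximal and 13.40 and 13.32 in the distal DA.

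Cell adhesion to the basement membrane gave 0 called genes among 22 laminins and integrins by limma, with 6 positive (27.3%) and 1 negative (4.55%) at an unadjusted p under 0.05, against 5.22% and 3.32% of all genes, and a median of 0.21. The laminin chain *lamb1* had 10.55 and 10.57 in the proximal DA, against 9.90 and 9.84 in the distal DA, and 7.75 and 7.83 in the aorta (difference 0.69, adjusted p = 0.13). The integrin *itgb3* had 9.35 and 9.67 in the proximal and 8.78 and 8.69 in the distal DA (adjusted p = 0.155). The 42 extracellular proteases and inhibitors held 4 positive (9.52%) and 6 negative (14.3%) genes at an unadjusted p under 0.05. Among them, the serine protease inhibitor *spink5* was the 1 called. It was at 9.52 and 9.26 in the proximal DA, against 7.90 and 7.88 in the distal DA, and 5.99 and 5.85 in the aorta, and was higher by 1.5 (SE 0.15, adjusted p = 0.0238 by limma). A second, dimmer *spink5* probe set differed by -0.08 (adjusted p = 0.997). Carboxypeptidase M, *cpm*, lay just outside the threshold, at 9.41 and 9.28 in the proximal and 7.61 and 8.12 in the distal DA (difference 1.48, adjusted p = 0.0504).

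**Figure D3:**
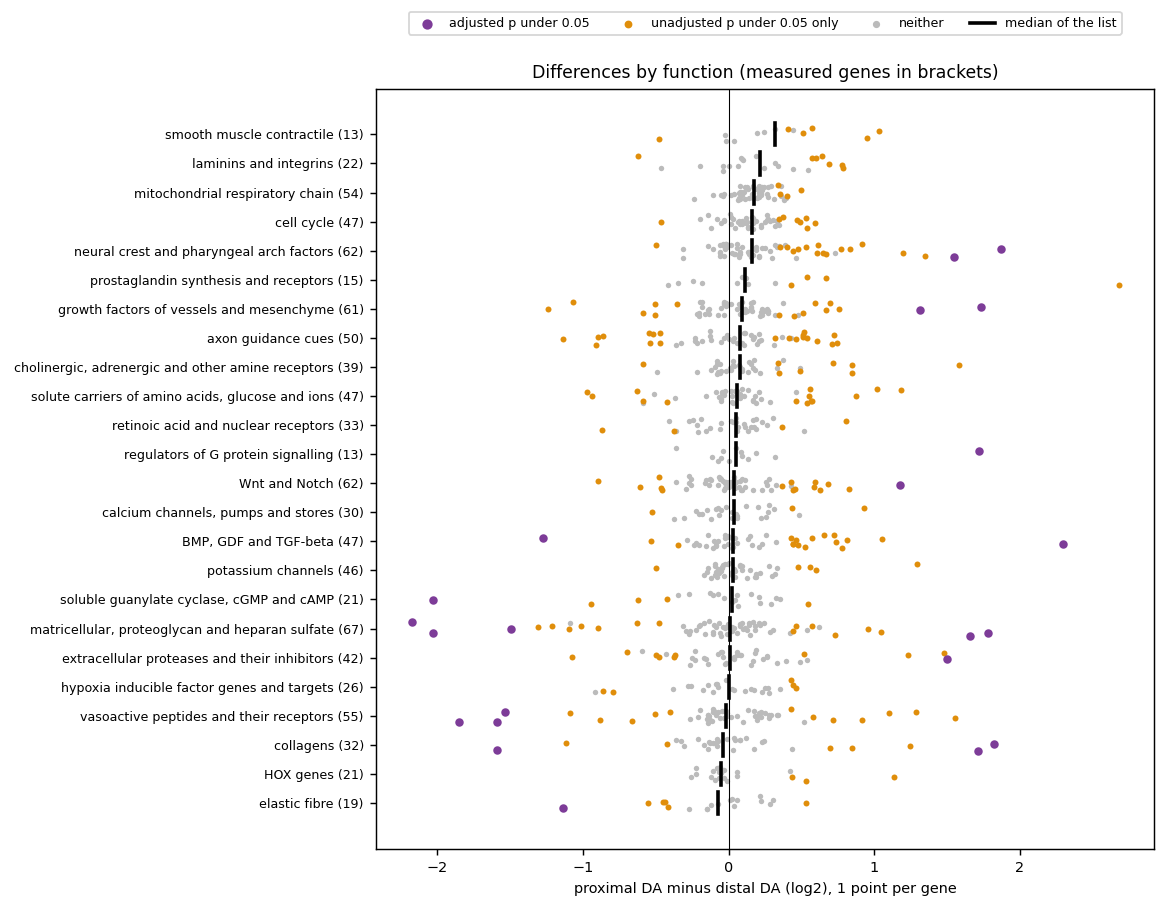
Proximal minus distal difference (log2) of each measured gene, 1 point per gene, for 24 lists by function; purple points passed at an adjusted p under 0.05, orange points had only an unadjusted p under 0.05, and black bars are list medians. Called matrix genes lie on both sides of 0, the 3 called vasoactive genes lie at -1.53 to -1.85, and the list medians lie between -0.07 and 0.31.

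Of the muscle genes, *des*, *myl4* and *ankrd1* were called. Desmin, *des*, the intermediate filament of muscle, was at 11.31 and 11.59 in the proximal DA, against 10.11 and 10.30 in the distal DA, and 7.26 and 7.20 in the aorta. It was higher by 1.25, or 2.37-fold (SE 0.16, adjusted p = 0.0425 by limma), and its probe set was named by the study's tables. *Myl4*, the atrial and embryonic essential light chain of myosin, had 10.90 and 11.10 in the proximal DA, against 9.89 and 9.72 in the distal DA, and 9.19 and 8.99 in the aorta, and was higher by 1.19 (adjusted p = 0.0447). *Ankrd1*, a stretch-responsive ankyrin repeat protein of heart muscle, had 8.45 and 8.67 in the proximal DA, against 7.35 and 7.05 in the distal DA, and 5.91 and 5.73 in the aorta, and was higher by 1.36 (adjusted p = 0.0395). These 2 were the called genes among 18 cardiac muscle genes, whose mean level was 6.44 and 6.23 in the proximal DA, against 6.19 and 6.15 in the distal DA, and 5.85 and 5.94 in the aorta. There were 3 positive (16.7%) and 1 negative (5.56%) at an unadjusted p under 0.05, against 5.22% and 3.32% of all genes. The heart markers *nkx2-5* (5.71 and 5.39 in the proximal, 5.62 and 5.60 in the distal DA) and *myh7* (6.50 and 6.15 in the proximal, 6.65 and 6.40 in the distal DA) overlapped between the parts. The cardiac nebulin relative *nebl* ran against the others, at 7.55 and 7.14 in the proximal and 8.93 and 8.54 in the distal DA (adjusted p = 0.0805 by limma).

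Of 13 measured smooth muscle contractile genes, 0 were called by limma. The called *des* was not counted among them, since its probe set had its name from the study's tables. There were 5 positive (38.5%) and 1 negative (7.69%) at an unadjusted p under 0.05, against 5.22% and 3.32% of all genes, and the median of 0.31 stayed between 0.18 and 0.41 under every alternative run. The smooth muscle myosin heavy chain *myh11*, which defines this cell type, was bright and level, with 12.03 and 12.20 in the proximal DA, against 12.11 and 12.17 in the distal DA, and 11.07 and 11.18 in the aorta. Transgelin, *tagln*, was at 11.21 and 11.42 in the proximal and 10.08 and 10.49 in the distal DA, and the light chain *myl9* at 11.22 and 11.27 in the proximal and 9.99 and 10.60 in the distal one (adjusted p = 0.112 and 0.488). Myosin light chain kinase, *mylk*, ran the other way without passing, at 10.77 and 10.92 in the proximal and 11.26 and 11.39 in the distal DA (adjusted p = 0.36). The skeletal actin gene *acta1* had 12.88 and 13.09 in the proximal DA, against 12.36 and 12.36 in the distal DA, and 9.99 and 9.67 in the aorta (adjusted p = 0.287), and 0 of 21 skeletal muscle genes were called (1 at an unadjusted p under 0.05). Pooled tissue cannot tell fewer cells of a type from less RNA per cell, here and in what follows.

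Called genes of vasoactive signalling went both ways, with *rgs5* and *entpd2* higher and *gucy1a3*, *ace*, *npy*, *ucn3*, *cpe* and *plce1* lower in the proximal DA. *Gucy1a3* encodes an alpha subunit of soluble guanylate cyclase, the receptor of nitric oxide. It lay at 5.65 and 5.51 in the proximal DA, against 7.21 and 8.01 in the distal DA, and 8.21 and 8.40 in the aorta. The gene fell by 2.03, or 4.08-fold (SE 0.25, adjusted p = 0.0395 by limma), with the 2 distal arrays further apart than the 2 proximal ones. This call was lost with quantile normalization and with cyclic loess. The partner subunit *gucy1b3* gave 7.42 and 7.71 in the proximal, 7.66 and 8.16 in the distal DA, and 7.54 and 7.52 in the aorta, so that the parts overlapped. Among 21 genes of cGMP and cAMP signalling, *gucy1a3* was the 1 called, and *gucy1a2*, which encodes another alpha subunit, was not. There were 1 positive (4.76%) and 4 negative (19%) at an unadjusted p under 0.05, against 5.22% and 3.32% of all genes. The phosphodiesterase *pde1c*, which degrades both messengers, was at 8.33 and 8.95 in the proximal and 9.52 and 9.65 in the distal DA (-0.94, adjusted p = 0.197).

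Angiotensin-converting enzyme, *ace*, makes angiotensin II and degrades bradykinin. It had 7.29 and 7.08 in the proximal DA, against 8.83 and 8.72 in the distal DA, and 10.59 and 10.66 in the aorta, and fell by 1.59 (SE 0.15, adjusted p = 0.0238 by limma). Neuropeptide Y, *npy*, a vasoconstrictor released by sympathetic nerves, had 8.45 and 8.93 in the proximal DA, against 10.11 and 10.34 in the distal DA, and 11.34 and 11.59 in the aorta, and fell by 1.53 (SE 0.20, adjusted p = 0.0447). For both genes the values rose from the proximal DA through the distal DA to the aorta. Urocortin 3, *ucn3*, a ligand of the corticotropin-releasing hormone receptor type 2, broke that order. It was at 6.55 and 6.31 in the proximal DA, against 8.21 and 8.35 in the distal DA, and 6.86 and 7.31 in the aorta, and fell by 1.85 (SE 0.19, adjusted p = 0.0238 by limma). These were the 3 called genes among 55 vasoactive peptide and receptor genes. At an unadjusted p under 0.05, 7 (12.7%) were positive and 8 (14.5%) negative, against 5.22% and 3.32% of all genes. Carboxypeptidase E, *cpe*, which trims the precursors of neuropeptides and hormones, was at 10.96 and 10.93 in the proximal, 12.14 and 12.16 in the distal DA, and 12.42 and 12.30 in the aorta, and fell by 1.21 (adjusted p = 0.0286).

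Several receptors and peptidases differed by more than 1 without passing. The mu opioid receptor *oprm1* had 6.18 and 5.81 in the proximal DA, against 7.06 and 7.11 in the distal DA, and 8.76 and 8.39 in the aorta (-1.09, adjusted p = 0.0886 by limma). Neprilysin, *mme*, which degrades natriuretic peptides and kinins, had 6.31 and 6.99 in the proximal DA, against 5.04 and 5.15 in the distal DA, where it could not be told from background (1.55, adjusted p = 0.0835). The bradykinin receptor *bdkrb1* was at 7.33 and 7.59 in the proximal and 6.55 and 6.17 in the distal DA (1.1, adjusted p = 0.0805). These genes had proximal arrays on 1 side of both distal arrays, which their choice by these same differences made likely. The muscarinic receptor *chrm2*, which answers to acetylcholine, had 7.44 and 8.09 in the proximal DA, against 6.19 and 6.18 in the distal DA, and 5.22 and 5.63 in the aorta (1.58, adjusted p = 0.0637). Of 39 amine receptors 0 were called by limma. At an unadjusted p under 0.05, 7 (17.9%) were positive and 1 (2.56%) negative, against 5.22% and 3.32% of all genes.

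*Rgs5* encodes an activator of G protein GTPases that shortens the signals of vasoconstrictor receptors, and it marks pericytes in mouse. It was at 9.85 and 9.72 in the proximal DA, against 7.95 and 8.18 in the distal DA, and 7.56 and 7.70 in the aorta. It was higher by 1.72, or 3.29-fold (SE 0.15, adjusted p = 0.0238 by limma), and was the 1 called among 13 regulators of G protein signalling. The next best known vascular member, *rgs2*, spread between replicates, with 8.97 and 9.45 in the proximal and 8.36 and 9.43 in the distal DA. The ectonucleotidase *entpd2*, which hydrolyses extracellular ATP, had 9.10 and 9.17 in the proximal DA, against 7.84 and 7.99 in the distal DA, and 6.61 and 6.59 in the aorta, and was higher by 1.22 (adjusted p = 0.0287). Phospholipase C epsilon, *plce1*, which the study lists as *loc425224*, was at 7.26 and 7.19 in the proximal, 8.22 and 8.54 in the distal DA, and 7.74 and 7.82 in the aorta, and fell by 1.15 (adjusted p = 0.0488).

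Prostaglandin and channel genes gave 0 calls by limma. Of 15 prostaglandin genes, 4 (26.7%) were positive and 0 negative at an unadjusted p under 0.05, against 5.22% and 3.32% of all genes. The largest, haematopoietic prostaglandin D synthase *hpgds*, spread over the proximal arrays, with 7.0 and 8.40 in the proximal DA, against 5.22 and 4.82 in the distal DA (2.68, SE 0.42, adjusted p = 0.0694). Its distal values were at background. The inducible cyclooxygenase *ptgs2* gave 8.71 and 9.35 in the proximal and 8.37 and 8.35 in the distal DA (0.67, adjusted p = 0.528). The prostaglandin E receptor *ptger4* was at background in both parts, at 5.31 and 5.01 in the proximal and 5.10 and 5.11 in the distal DA. Of 46 potassium channel genes, 4 (8.7%) were positive and 1 (2.17%) negative at an unadjusted p under 0.05, not far from the shares of all genes. The beta subunit *kcnmb2* of the large-conductance channel had the largest difference of them, with 8.92 and 9.44 in the proximal and 8.22 and 7.56 in the distal DA (1.29, adjusted p = 0.178). The voltage-gated channel *kcna5* was at background throughout, at 4.48 and 4.38 in the proximal and 4.31 and 4.17 in the distal DA. Of 30 calcium genes, 2 (6.67%) were positive and 1 (3.33%) negative at that level, near the shares of all genes. The T-type channel *cacna1h* came nearest, with 8.63 and 8.84 in the proximal, 7.70 and 7.91 in the distal DA, and 5.63 and 5.52 in the aorta (0.93, adjusted p = 0.0805).

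**Figure D4:**
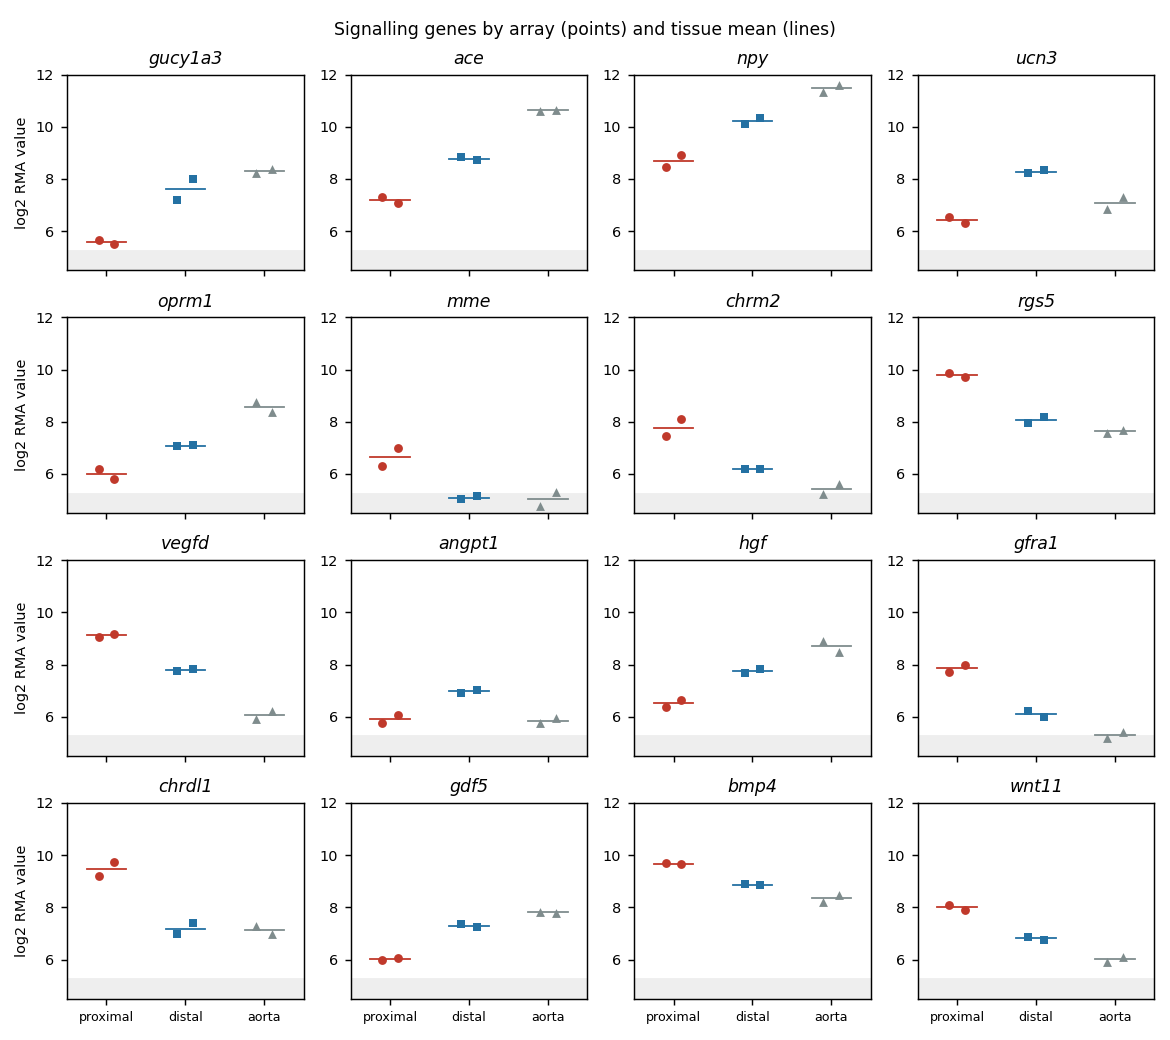
Log2 RMA value of 16 signalling genes in each array (points) with the tissue mean (line), from the proximal DA on the left through the distal DA to the aorta; the grey band lies below the lowest lower quartile of an array (5.25). *Ace* and *npy* form a stair up to the aorta, *vegfd* and *wnt11* a stair down, and *ucn3* and *angpt1* have their highest values in the distal DA.

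Among growth factors and their antagonists, *chrdl1* had the largest difference. Chordin-like 1 binds BMP ligands and blocks them. It was at 9.22 and 9.73 in the proximal DA, against 6.97 and 7.39 in the distal DA, and 7.27 and 6.99 in the aorta, and was higher by 2.29, or 4.91-fold (SE 0.23, adjusted p = 0.0238 by limma). *Gdf5*, a ligand of the BMP family known from joints, had 6.0 and 6.06 in the proximal DA, against 7.35 and 7.26 in the distal DA, and 7.82 and 7.79 in the aorta, and fell by 1.27 (SE 0.13, adjusted p = 0.0238). These were the called genes among 47 of the BMP, GDF and TGF-beta pathway, of which 14 (29.8%) were positive and 3 (6.38%) negative at an unadjusted p under 0.05, against 5.22% and 3.32% of all genes. The ligand *bmp4* was at 9.70 and 9.66 in the proximal DA, against 8.88 and 8.85 in the distal DA, and 8.21 and 8.48 in the aorta (0.81, adjusted p = 0.111). Gremlin 1, *grem1*, a second BMP antagonist, was at 7.81 and 7.70 in the proximal, 6.73 and 6.67 in the distal DA, and 6.39 and 6.16 in the aorta, just outside the threshold (1.05, adjusted p = 0.0504). In the GRCg7b assembly *chrdl1* has a called neighbour, *capn6*, with 2 genes between them. *Capn6*, a calpain without protease activity, had 8.72 and 8.93 in the proximal DA, against 6.66 and 7.39 in the distal DA, and 8.55 and 8.33 in the aorta, and was higher by 1.80 (adjusted p = 0.048 by limma).

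The 61 growth factor genes of vessels and mesenchyme held 2 calls, both higher. This list had 9 positive (14.8%) and 6 negative (9.84%) at an unadjusted p under 0.05, against 5.22% and 3.32% of all genes. *Vegfd*, a ligand for receptors of lymphatic and blood vessel endothelium, had 9.05 and 9.19 in the proximal DA, against 7.77 and 7.84 in the distal DA, and 5.91 and 6.23 in the aorta. *Vegfd* was higher by 1.31 (SE 0.16, adjusted p = 0.0395 by limma). *Gfra1*, the co-receptor of the neurotrophic factor GDNF, had 7.73 and 7.97 in the proximal DA, against 6.24 and 6.0 in the distal DA, and 5.17 and 5.41 in the aorta, and was higher by 1.73 (SE 0.17, adjusted p = 0.0238). Angiopoietin 1, *angpt1*, which stabilises vessels, was at 5.75 and 6.06 in the proximal DA, against 6.91 and 7.04 in the distal DA, and 5.75 and 5.95 in the aorta (-1.07, adjusted p = 0.0679). Hepatocyte growth factor, *hgf*, was at 6.38 and 6.64 in the proximal, 7.66 and 7.84 in the distal DA, and 8.91 and 8.48 in the aorta (-1.24, adjusted p = 0.0667). *Vegfa*, the main endothelial growth factor, was close in both parts, with 8.99 and 8.97 in the proximal and 8.86 and 8.56 in the distal DA.

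The 62 Wnt and Notch genes held 10 positive (16.1%) and 5 negative (8.06%) at an unadjusted p under 0.05. Among them, *wnt11*, a ligand of the non-canonical pathway, was the 1 called. It was at 8.10 and 7.90 in the proximal DA, against 6.88 and 6.77 in the distal DA, and 5.91 and 6.11 in the aorta, and was higher by 1.17 (SE 0.15, adjusted p = 0.0447 by limma). The call was lost with quantile normalization. By quantitative PCR, the study states a significantly higher *wnt11* level in the proximal DA at an earlier embryonic stage, and its text names no other stage. The related ligand *wnt5a* had 8.52 and 8.49 in the proximal and 7.83 and 7.81 in the distal DA (0.69, adjusted p = 0.156). The Notch ligand *jag1* and the target *hey1* had negative differences that did not pass. *Jag1* was at 9.53 and 9.67 in the proximal and 10.09 and 10.04 in the distal DA, and *hey1* at 9.34 and 9.23 in the proximal and 9.89 and 9.90 in the distal one (adjusted p = 0.37 and 0.213). Guidance cues had differences of both signs, with 0 of 50 called by limma. At an unadjusted p under 0.05, 11 (22%) were positive and 9 (18%) negative, against 5.22% and 3.32% of all genes. *Sema3a*, which repels growing axons, was at 6.71 and 6.85 in the proximal, 7.73 and 8.10 in the distal DA, and 8.28 and 8.52 in the aorta (-1.13, adjusted p = 0.068). *Slit2*, also a repellent, was at 9.31 and 9.49 in the proximal and 8.56 and 8.75 in the distal DA (0.74, adjusted p = 0.178).

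A list of 62 transcription factors was named for neural crest and pharyngeal arch. It also held *nkx2-5*, *sox18* and *wt1*, which stand on the cardiac, endothelial and mesothelial lists. Its shares are therefore not particular to neural crest. Of the 62, 2 were higher and 0 lower, against 0.234% and 0.139% of all genes. At an unadjusted p under 0.05, 16 (25.8%) were positive and 1 (1.61%) negative, against 5.22% and 3.32% of all genes. *Tfap2b*, whose mutations cause patent DA in human and mouse, was at 7.81 and 8.34 in the proximal DA, against 6.27 and 6.14 in the distal DA, and 4.83 and 4.66 in the aorta. It was higher by 1.87, or 3.65-fold (SE 0.20, adjusted p = 0.0238 by limma). *Foxf1*, a factor of visceral and lung mesenchyme, was at 9.22 and 9.29 in the proximal DA, against 7.78 and 7.63 in the distal DA, and 6.23 and 6.25 in the aorta, and was higher by 1.55 (SE 0.14, adjusted p = 0.0238). Both descended in clear steps from the proximal DA to the aorta. *Nfatc1*, a calcineurin-regulated factor of heart valve endocardium, was higher by 1.23, at 8.85 and 8.66 in the proximal, 7.46 and 7.58 in the distal DA, and 7.46 and 7.55 in the aorta (adjusted p = 0.0329). *Prrx2*, of limb and arch mesenchyme, was at 10.64 and 10.57 in the proximal and 9.83 and 9.55 in the distal DA (0.91, adjusted p = 0.0791). *Snai1*, a repressor of epithelial genes, was at 8.96 and 9.64 in the proximal and 7.94 and 7.97 in the distal DA (1.34, adjusted p = 0.0805).

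HOX genes mark position along the body axis. None of 21 measured was called by limma, and 3 (14.3%) were positive at an unadjusted p under 0.05, against 5.22% of all genes. All 3 were of the fourth paralogue group. *Hoxb4* was at 8.47 and 8.54 in the proximal DA, against 7.37 and 7.37 in the distal DA, and 6.81 and 7.15 in the aorta, just outside the threshold (1.13, SE 0.16, adjusted p = 0.0504). *Hoxa4* was at 8.14 and 7.78 in the proximal and 7.51 and 7.54 in the distal DA, and *hoxd4* at 6.69 and 6.75 in the proximal and 6.18 and 6.20 in the distal DA. Their neighbours *hoxa3* (8.02 and 8.21 in the proximal, 8.14 and 8.33 in the distal DA) and *hoxb3* (7.92 and 7.78 in the proximal, 7.87 and 7.85 in the distal DA) overlapped between the parts.

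Called genes of other functions were fewer. *Fam132a*, a secreted protein also known as adipolin, was at 11.73 and 11.62 in the proximal DA, against 10.40 and 9.99 in the distal DA, and 6.20 and 6.60 in the aorta, and was higher by 1.48 (SE 0.20, adjusted p = 0.048 by limma). It stood on the adipocyte list as the 1 called gene of 10. That list had 3 positive (30%) and 0 negative at an unadjusted p under 0.05, against 5.22% and 3.32% of all genes. The fat droplet protein *plin1* overlapped, at 8.43 and 8.02 in the proximal and 8.38 and 8.21 in the distal DA, and the mean level of the list was 8.25 and 8.09 in the proximal against 7.89 and 7.84 in the distal DA. The connexin *gjc3* was higher by 1.26, at 8.48 and 8.70 in the proximal, 7.37 and 7.28 in the distal DA, and 6.77 and 6.49 in the aorta (adjusted p = 0.0427). The secreted *cytl1* was higher by 1.73, at 8.32 and 7.84 in the proximal and 6.64 and 6.06 in the distal DA (adjusted p = 0.0497). *Phlda2*, imprinted in mammals, was higher by 1.08, at 7.29 and 7.46 in the proximal and 6.26 and 6.33 in the distal DA (adjusted p = 0.0447).

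Lower in the proximal DA were also *ptpro*, *grin3a*, *anxa8l1* and *loc419409*. The receptor tyrosine phosphatase *ptpro* was at 5.57 and 5.69 in the proximal, 7.31 and 7.24 in the distal DA, and 7.67 and 7.62 in the aorta, and fell by 1.65 (SE 0.14, adjusted p = 0.0238 by limma). The NMDA receptor subunit *grin3a* was at 6.27 and 6.53 in the proximal, 7.64 and 8.08 in the distal DA, and 7.46 and 7.53 in the aorta, and fell by 1.46 (adjusted p = 0.0427). The annexin *anxa8l1* was at 9.51 and 9.72 in the proximal and 10.73 and 10.66 in the distal DA, and fell by 1.08 (adjusted p = 0.0461). Both probe sets of *loc419409*, a gene without an informative name, were lower, the brighter at 10.18 and 10.36 in the proximal and 11.72 and 11.54 in the distal DA (-1.36, adjusted p = 0.0256). Of 47 solute carriers 0 were called by limma. At an unadjusted p under 0.05, 9 (19.1%) were positive and 5 (10.6%) negative, against 5.22% and 3.32% of all genes. The noradrenaline transporter *slc6a2* was at 7.41 and 7.84 in the proximal and 6.64 and 6.57 in the distal DA (1.02, adjusted p = 0.181).

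Oxygen-related, retinoic acid, metabolic and cell cycle genes gave 0 calls by limma. Of 26 hypoxia inducible factor genes and targets, 3 (11.5%) were positive and 2 (7.69%) negative at an unadjusted p under 0.05. The shares of all genes were 5.22% and 3.32%, and the median of the list was 0.005. The factor *epas1* was at 11.14 and 11.42 in the proximal and 11.18 and 11.30 in the distal DA. *Hif1a* spread over the proximal arrays, with 4.89 and 6.14 there and 6.27 and 6.60 in the distal DA. Its difference of -0.92 was the most negative of the list and did not pass, and its value of 4.89 was at background. The prolyl hydroxylase *egln3*, itself induced by low oxygen, was at 7.49 and 6.96 in the proximal, 8.23 and 7.95 in the distal DA, and 8.73 and 8.25 in the aorta (-0.86, adjusted p = 0.316). Of 33 retinoic acid and nuclear receptor genes, 2 (6.06%) were positive and 2 (6.06%) negative at that level. The retinoic acid-making enzyme *aldh1a2* was at 7.43 and 7.22 in the proximal and 6.58 and 6.46 in the distal DA (0.80, adjusted p = 0.181). Of 54 respiratory chain genes, 49 had a positive difference with a median of 0.18, and 4 (7.41%) were positive at an unadjusted p under 0.05. Of 47 cell cycle genes, 39 had a positive difference with a median of 0.16, and 7 (14.9%) were positive and 1 (2.13%) negative at an unadjusted p under 0.05. The share of positive differences over all genes was not counted, and their median was -0.005. Such a lean was not particular to these 2 lists. Positive differences made up 19 of 22 endothelial and 19 of 23 lung and airway genes, but 2 of 13 blood cell genes. The mean respiratory chain level was 8.32 and 8.54 in the proximal DA, against 8.17 and 8.35 in the distal DA, so that the spread between replicates was as wide as the difference between the parts. The cycle genes *cdk1* (8.87 and 9.0 in the proximal, 8.45 and 8.48 in the distal DA) and *mki67* (9.48 and 9.70 in the proximal, 9.42 and 9.23 in the distal DA) did not pass.

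Markers of other cell types were measured in the same arrays, and their part in the results above was not tested. Their lists, too, were drawn up with earlier results of these data known. *Tyr*, the enzyme that starts melanin synthesis, was the 1 called of 20 pigment cell genes, at 6.58 and 7.91 in the proximal DA, against 4.45 and 4.41 in the distal DA, and 4.55 and 4.88 in the aorta (2.82, SE 0.38, adjusted p = 0.048 by limma). The pigment list held 9 positive (45%) and 0 negative genes at an unadjusted p under 0.05, against 5.22% and 3.32% of all genes. The mean level of the list was 6.23 and 6.66 in the proximal DA, against 5.75 and 5.71 in the distal DA, and 5.57 and 5.67 in the aorta. Of 23 lung and airway epithelial genes, 2 were called, and the mean level was 6.49 and 6.32 in the proximal DA, against 5.88 and 5.77 in the distal DA, and 5.72 and 5.80 in the aorta. There were 8 positive (34.8%) and 0 negative at an unadjusted p under 0.05. *Cyp2c45*, a cytochrome P450, was at 9.90 and 9.17 in the proximal DA, against 7.10 and 6.42 in the distal DA, and 6.43 and 6.80 in the aorta (2.77, SE 0.31, adjusted p = 0.0272). Whether *cyp2c45* marks lung or airway cells was not tested here. The surfactant protein probe set *sftpa2*, which the study lists as *sftpa1*, was at 6.60 and 7.16 in the proximal DA, against 5.12 and 5.19, near background, in the distal DA (1.72, adjusted p = 0.0287). Both array values lay under the lower quartiles of their arrays for 4 of the 23 genes in the proximal DA, against 11 in the distal DA.

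The epithelial genes named in this paragraph did not vary together between the 2 proximal arrays. The other genes of the list were not compared in this way, and *muc22* and *muc* were not counted in the list. Proximal DA replicate 1 was the higher for *epcam*, an epithelial adhesion protein, at 7.18 against 6.05 in replicate 2, and for the mucins *muc22* (8.59 against 5.93) and *muc* (6.62 against 4.36). Proximal DA replicate 2 was the higher for *sftpa2* and for *lamp3*, a lysosomal protein of surfactant-making cells, which had 7.92 in replicate 1 and 9.13 in replicate 2 at its most different probe set. In the distal DA these genes were at 4.95 and 4.83 for *epcam*, 5.79 and 5.44 for *muc22*, 3.86 and 3.99 for *muc*, and 6.09 and 5.69 for *lamp3*. None of *epcam*, *muc22*, *muc* and *lamp3* passed (*lamp3* adjusted p = 0.0516 by limma at that probe set). Other *lamp3* probe sets differed by 1.83, 1.525 and 1.06 (adjusted p = 0.227, 0.236 and 0.491), the first being the brightest. Myelin basic protein, *mbp*, of Schwann cells, also differed between the proximal arrays, with 9.05 in proximal replicate 1 and 6.14 in replicate 2. It was at 6.14 and 5.69 in the distal DA and 5.65 and 7.29 in the aorta.

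Endothelial genes gave 0 calls of 22 by limma, but 9 (40.9%) were positive and 0 negative at an unadjusted p under 0.05, against 5.22% and 3.32% of all genes. Their mean level was 8.15 and 8.09 in the proximal DA, against 7.86 and 7.82 in the distal DA, and 7.06 and 7.12 in the aorta. The mucin-like *emcn* was at 8.97 and 9.15 in the proximal and 8.25 and 8.53 in the distal DA (0.67, adjusted p = 0.235). *Kdr*, the receptor of VEGF, overlapped at 8.22 and 8.49 in the proximal and 8.32 and 8.21 in the distal DA. Fibroblast and adventitial genes split, with 3 positive (15.8%) and 4 negative (21.1%) at an unadjusted p under 0.05. Of 19, only *fbln1* was called, while *abi3bp*, at 10.35 and 9.86 in the proximal and 8.91 and 8.81 in the distal DA, and *cxcl12*, at 8.50 and 8.11 in the proximal and 9.33 and 9.39 in the distal DA, lay on opposite sides (adjusted p = 0.0757 and 0.115). Of 19 nerve and Schwann cell genes, 0 were called by limma (3, or 15.8%, positive and 1, or 5.26%, negative at an unadjusted p under 0.05). The neural adhesion protein *ncam1* came nearest, at 9.79 and 9.65 in the proximal, 10.67 and 10.76 in the distal DA, and 11.67 and 11.50 in the aorta (-0.99, adjusted p = 0.0527).

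Of 11 mesothelial genes named by the array annotation, 0 were called (1, or 9.09%, positive at an unadjusted p under 0.05, against 5.22% of all genes). *Upk1b*, which lines urothelium and mesothelium, was also listed, but its probe set was named by the study's tables and so not counted among the 11. It was called higher, at 6.27 and 6.78 in the proximal DA, against 5.01 and 4.96 in the distal DA, and 4.89 and 5.20 in the aorta (1.54, adjusted p = 0.0459 by limma). Its distal values were at background. The defining mesothelial genes *upk3b* (9.42 and 9.09 in the proximal, 9.50 and 9.36 in the distal DA) and *wt1* (5.29 and 5.18 in the proximal, 5.04 and 5.06 in the distal DA) did not pass. *Wt1* was at background in both parts, so it cannot speak to their mesothelial content. Blood cell genes had a median of -0.27 with 0 of 13 called (1, or 7.69%, positive at an unadjusted p under 0.05), and the globin *hbad* was at 9.15 and 10.32 in the proximal and 10.11 and 10.39 in the distal DA. Of 27 leukocyte genes and 12 parathyroid, thyroid and thymus genes, 0 were called, with 3 (11.1%) and 0 positive at an unadjusted p under 0.05. Parathyroid hormone, *pth*, was at background in all arrays (4.76 and 4.59 in the proximal, 4.68 and 4.73 in the distal DA).

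**Figure D5:**
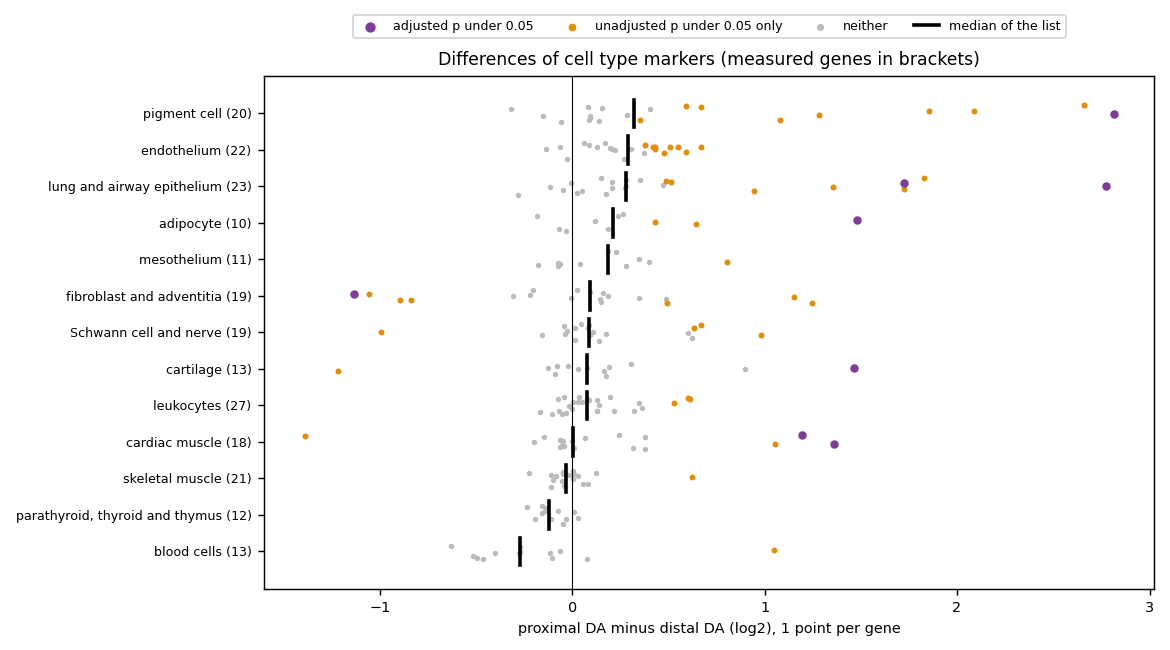
Proximal minus distal difference (log2) of each measured marker gene, 1 point per gene, for 13 lists of other cell types, with the same colours as the plot by function. The medians of the endothelial, pigment and lung lists are 0.29, 0.32 and 0.28, and the pigment and lung lists reach 2.81 and 2.77, against 0.67 for the endothelial list.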

How the data were processed

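The authors hybridized labelled cDNA (biotinylated cRNA per the labels) to GeneChip Chicken Gene 1.0 ST arrays. Scans were read in Command Console 2.0, and RMA came from Bioconductor 3.5, package oligo 1.40.1. The deposited log2 values are background-corrected, quantile-normalized and summarized per probe set. Quantile normalization evens out overall shifts between tissues, although the array medians of the summarized values still ran from 6.61 to 6.66. A genome build was not given in the sources used here. All 6 arrays were used as deposited, with no filter, and 0 columns were left unmatched.

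Group means were fitted with lmFit, contrasts.fit and eBayes (no trend) of limma 3.58.1 under R 4.3.3 (3 residual and 4.40 prior degrees of freedom; median SE 0.167), with Benjamini-Hochberg adjustment over all 20804 probe sets. The number of arrays limits the precision. The fit was tested on simulated data. Symbols came from the array annotation (12300 probe sets with 1, 256 with several, 8248 with none; 11727 found in RefSeq) and, for 11 probe sets, from the study's tables. For the 37 gene lists, each of 11528 genes was taken at its brightest probe set. Probe sets named by the study's tables, such as those of *des* and *upk1b*, were not counted in the lists. Named were all called probe sets with a symbol, the 30 largest differences in each direction, key members and the 4 smallest p in each direction of each list, and the genes of the study's tables; the text gives those its account needs. The members and lists were chosen with earlier results of these data known.

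Alternatives were a fit of only the 4 DA arrays, cyclic loess or quantile normalization, trended and robust eBayes, only the brighter 0.5 of probe sets, the median over a gene's probe sets, a minimum difference of 1, the replicate number as a block, and each array left out.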

Additional observations from a re-analysis of the deposited data

How the results depend on the processing

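Leaving out either aorta array gave the same fit as only the 4 DA arrays, because 1 aorta array adds nothing to the estimated spread. In that fit the 33 higher and 19 lower calls became 36 and 19 (47 of the 52 calls kept). They became 46 and 34 with trend and robust eBayes (51 kept), 24 and 18 with quantile normalization (40 kept), 22 and 15 with cyclic loess (36 kept), and 61 and 46 with the brighter 0.5 of the probe sets, where fewer were tested (43 kept). The calls of *gucy1a3*, *tyr* and *fam132a* were lost with both quantile normalization and cyclic loess. Those of *fbln1*, *col8a1* and *col26a1* were lost with cyclic loess. A minimum difference of 1 left 33 and 19. With 1 DA array left out, the counts ran from 0 to 4 higher and from 0 to 1 lower, and with any array left out from 0 to 36 and from 0 to 19; the remaining array is then assumed to vary like the other groups. At an unadjusted p under 0.05 there were still 967 and 675 when proximal DA replicate 1 was left out, 831 and 841 for proximal DA replicate 2, 513 and 566 for distal DA replicate 1, and 564 and 430 for distal DA replicate 2. With the replicate number as a block, the calls were 0 and 0 by limma (991 and 852 at an unadjusted p under 0.05; smallest adjusted p = 0.0618), and 0 and 0 with the block and only the 4 DA arrays, chosen after seeing the data (1132 and 1140). The labels do not say that a number pairs arrays. Deviations of same-numbered arrays correlated at 0.321 for proximal with distal DA, -0.034 for proximal DA with aorta, and 0.199 for distal DA with aorta. The cause of these changes was not tested. None of the 223 probe sets examined at an unadjusted p under 0.05 changed direction under any alternative, but they were chosen by these same arrays. Of 24 others that the text names, 12 changed direction. With 1 array left out, the difference ran from -1.1 to 0.07 for *hbad*, -0.275 to 0.135 for *plin1*, -0.22 to 0.1 for *nkx2-5*, -0.115 to 0.055 for *pth*, -0.11 to 0.06 for *myh11*, -0.08 to 0.06 for *hoxb3*, -0.1 to 0.18 for *epas1*, -0.07 to 0.16 for *col1a1*, -0.095 to 0.205 for *ptger4*, -0.045 to 0.225 for *kdr*, -0.22 to 0.85 for *rgs2* and -0.395 to 0.235 for the dimmer *spink5* probe set. That of *pth* was 0.001 with quantile normalization and 0.001 with cyclic loess, and that of *myh11* 0.016 with cyclic loess. The medians of 19 of the 37 lists changed sign under at least 1 alternative, that of pigment genes (0.32) to -0.23 over the brighter 0.5 of the probe sets; those of the contractile, endothelial, lung, laminin and neural crest lists did not. Low values near background and 2 arrays per tissue limit what these data can show.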
